A study of Homo sapiens with 18 samples.

Results

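The mitotic spindle and kinetochore genes described here are a list of 55 human genes chosen by name, though with earlier results of these data known. Each has a row among the 30954 gene IDs of the H2052 count table, and they fall into 9 roles, from the kinases that start mitosis to the kinesins and centromere proteins of the spindle. Their RNA was measured in 12 libraries of NCI-H2052, a human mesothelioma cell line with mutant NF2 and LATS2, both genes of the Hippo pathway. The 4 groups, with 3 libraries each, were NF1 mutant cells in VT107, NF1 mutant cells in DMSO, parental cells in VT107 and parental cells in DMSO, all collected after 24 h. VT107, used at 1 µM, blocks palmitoylation of the TEAD transcription factors, and DMSO is its solvent. The NF1 mutant cells carried virally delivered Cas9 and a guide RNA to NF1 and were drug-selected, with no isolation of single clones described, and both the mutant and the parental cells keep the Hippo pathway mutations of the line. A further 6 libraries of NCI-H226 cells, a mesothelioma line without NF2, had the same VT107 and DMSO treatments and are used as support.

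Cells enter mitosis when cyclin B and CDK1 are switched on together with the Aurora and Polo kinases. Kinesins and microtubule-binding proteins then build the spindle, kinetochores on the centromeres attach chromosomes to it, and the spindle checkpoint holds back CDC20 and the anaphase-promoting complex until every chromosome is attached. Most of these genes are transcribed in late S, G2 and M phase through B-MYB (MYBL2), FOXM1 and the MuvB complex, whose target promoters often carry a cell cycle homology region (CHR) and CCAAT boxes, and they are repressed in resting cells by the DREAM complex. Their summed RNA is therefore widely read as a measure of how many cells of a culture are cycling. In bulk RNA, fewer cells in mitosis and less RNA per cell cannot be told apart.

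The libraries held 3285363 to 4806065 counts in NF1 mutant VT107, 3988479 to 5489092 in NF1 mutant DMSO, 12424914 to 13346712 in parental VT107 and 10950284 to 13418485 in parental DMSO cells. NF1 itself was at 8.28 to 18.2 depth-normalised counts (CPM) in NF1 mutant VT107 and 12.6 to 17.9 in NF1 mutant DMSO libraries, against 26.3 to 60.96 in parental VT107 and 34.0 to 68.3 in parental DMSO libraries, so the groups did not overlap by genotype. Of 9 listed YAP/TAZ-TEAD target genes, 9 had a negative VT107 log2 fold change in parental cells, with a median of -1.41, and 7 of 8 tested did in NF1 mutant cells, with a median of -1.93. The keratins KRT8, KRT18 and KRT19 were detected in every library, while KRT5 was at 0 in all 12 libraries. Calretinin (CALB2) was at 0 to 0.246 CPM in NF1 mutant DMSO libraries, with a median of 0. Its highest value was 8.29 CPM, in parental VT107. The other listed keratin and mesothelial markers were detected in every library. MSLN was at 13.1 to 71.4 CPM, WT1 at 18.6 to 48.97 and PDPN at 21.05 to 38.7 CPM. BNC1 was at 3.71 to 24.3 CPM and KRT7 at 37.1 to 278 CPM. UPK3B was low, at 0.29 to 1.47 CPM, and the lowest value of LRRN4 was 1.17 CPM. Of 5 leukocyte markers, CD53 was at 0 in all 12 libraries, PTPRC and LAPTM5 reached at most 3 counts, and CORO1A and CD74 were counted. Their summed level over the 5 genes was 15.9 to 31.1 CPM in NF1 mutant VT107, 16.4 to 20.5 in NF1 mutant DMSO, 9.93 to 22.0 in parental VT107 and 10.4 to 19.3 CPM in parental DMSO libraries, and its part in the results was not tested. A gene of the opposite strand overlaps 14 of the 55 members (PLK1, CCNA2, MAD2L1, NUF2, SPC25, KIF2C, KIF4A, KIF20A, KIF23, PRC1, ANLN, HMMR, CDC25C and FOXM1), and without a stated strand setting the reads of such pairs cannot be told apart.

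Some libraries stood apart from the rest of their group, and the results that rest on them are given with and without them. In NF1 mutant VT107 replicate 1 the median gene differed by 0.88 on the log2 scale from the mean of the other 2 libraries, against 0.14 to 0.17 among the NF1 mutant DMSO libraries. Of the 53 members with at least 1 CPM in every H2052 library, 18 were over 2-fold lower and 5 over 2-fold higher in that library. ANLN, an actin-binding protein of the cleavage furrow, had 7.71 CPM there and 177 and 149 CPM in the other 2 libraries, whereas TPX2, which activates Aurora A on the spindle, had 888 CPM there and 346 and 351 CPM in the others. In parental cells the libraries numbered 3 stood apart in both treatments. TOP2A, the topoisomerase that untangles chromosomes, had 163 CPM in VT107 replicate 3 against 862 and 888 CPM in the other VT107 libraries, and 347 CPM in DMSO replicate 3 against 1298 and 1188 CPM in the other DMSO libraries. The list of 12 keratin and mesothelial markers was also highest in these 3 libraries of their groups. Its mean log2 level was 5.08 in NF1 mutant VT107 replicate 1 against 4.65 and 4.66 in the other libraries of that group, 4.88 in parental VT107 replicate 3 against 4.53 and 4.37, and 4.90 in parental DMSO replicate 3 against 4.50 and 4.48, and its part in the results was not tested.

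**Figure D1:**
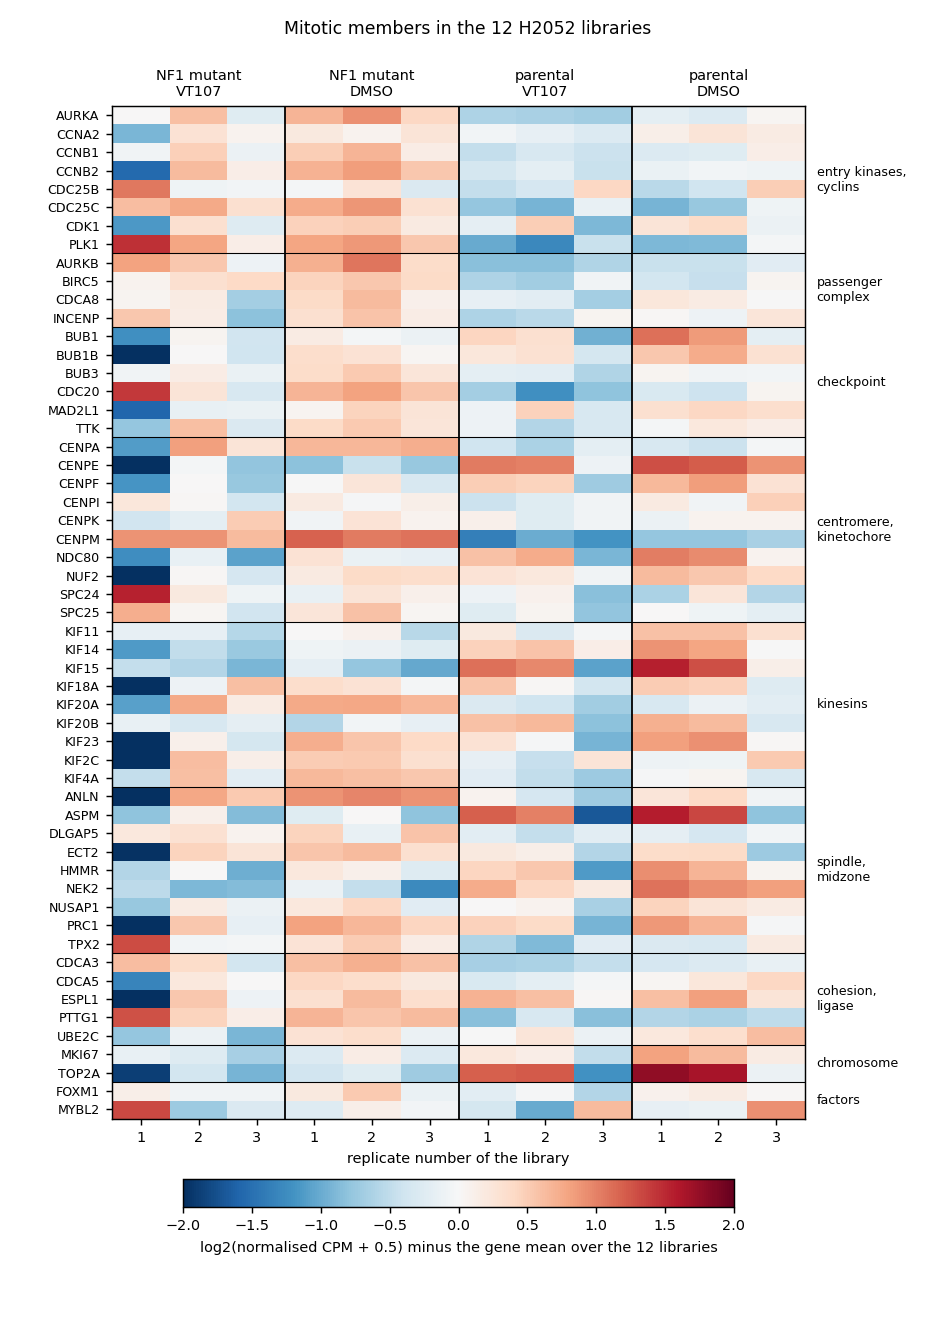
Level of the 55 members (rows, grouped by role) in the 12 H2052 libraries (columns, by group and replicate number), as log2(normalised CPM + 0.5) minus the mean of each gene over the 12 libraries, with colours limited to -2 and 2. NF1 mutant VT107 replicate 1 and the parental libraries numbered 3 stand apart, and CENPM is high in all 6 NF1 mutant libraries.

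The first question was whether TEAD inhibition lowered the mitotic genes of parental H2052 cells. A gene was tested where it had at least 0.5 CPM in every library of the comparison, which 54 members passed. SPC24, a subunit of the NDC80 kinetochore complex, had 2 to 12 counts per library and did not pass. Of the 54, 53 had a negative VT107 log2 fold change, with a median of -0.37 against 0.01 over all 12891 genes tested. None of the 54 passed an adjusted p of 0.05 in edgeR's quasi-likelihood test, 5 had an unadjusted p under 0.05, and DESeq2 and limma with quality weights also called 0. The same edgeR test called 0% of all genes, 474 genes had an unadjusted p under 0.05, and DESeq2 called 32 genes. For 18 of the 54 members every VT107 library lay below every DMSO library, against 6.05% of all genes tested, and for 0 members every VT107 library lay above, against 4.44%.

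Same-numbered parental libraries deviated together, although numbers 1 and 2 were not told apart from each other, and a fit with the replicate number as a block called 3 members lower and 0 higher, where it called 1.67% of all genes, 0.822% lower and 0.846% higher. They were KIF23, CDC20 and MKI67. KIF23, the kinesin of the central spindle and midbody (chr15:69706585-69740764 in hg19), had 30.9, 24.8 and 13.02 CPM in VT107 libraries 1, 2 and 3, against 44.8, 47.8 and 25.8 CPM in DMSO libraries 1, 2 and 3. It was lower in VT107 at each number, although the DMSO library numbered 3 lay within the VT107 range. Its log2 fold change was -0.77 ± 0.35 (SE) without the block and -0.80 ± 0.13 (SE) with it, where edgeR's adjusted p was 0.0238.

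CDC20, the activator of the anaphase-promoting complex that the checkpoint restrains, had 153, 105 and 141 CPM in VT107, against 199.9, 186 and 257 CPM in DMSO libraries, and the groups did not overlap. It fell by 0.67 on the log2 scale in the block fit, with an edgeR adjusted p of 0.0321. MKI67, which coats mitotic chromosomes and encodes the proliferation marker Ki-67, had 276, 261 and 169.5 CPM in VT107 and 414, 368 and 265 CPM in DMSO libraries. Its highest VT107 library lay above its lowest DMSO library, and it fell by 0.56 on the log2 scale in the block fit, with an edgeR adjusted p of 0.038. With a block that sets only the number 3 libraries apart, 7 members were called lower and 0 higher, where 193 of 12891 genes were called lower and 181 higher. With both number 3 libraries left out and no block, edgeR called 0 members, 27 had an unadjusted p under 0.05, and the median over the members was -0.29.

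The other members with a large negative value did not pass. BUB1, a kinase of the spindle checkpoint, had 16.3, 15.1 and 5.89 CPM in VT107 and 26.2, 22.1 and 10.5 CPM in DMSO libraries, a log2 fold change of -0.64 ± 0.45 (SE), with an edgeR adjusted p of 0.0593 in the block fit. Within each number it was lower in VT107, and the spread between numbers was larger than that difference. The 3 highest values of the list belonged to CDC25B, CDC25C and CENPK. CDC25B, a phosphatase that switches on cyclin-dependent kinases, had 71.96, 80.1 and 134 CPM in VT107 and 68.9, 76.6 and 141 CPM in DMSO libraries. CDC25C, the related phosphatase of mitotic entry, had 16.01, 14.4 and 25.03 CPM in VT107 and 14.3, 16.1 and 26.2 CPM in DMSO libraries. The groups overlapped for both. CENPK, of the constitutive centromere network, had 27.4, 21.4 and 24.3 CPM in VT107 and 23.4, 26.6 and 26.7 CPM in DMSO libraries. Their log2 fold changes of 0.01, -0.01 and -0.05 were smaller than their SEs of 0.37, 0.33 and 0.18, and each turned direction with some library left out.

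Taken within replicate numbers, 48, 48 and 52 of the 54 members were lower in VT107 at numbers 1, 2 and 3, against 52.2, 57 and 50.3% of all genes. At all 3 numbers 41 of the 54 were lower, where 23.9% of genes were. Their median differences were -0.30, -0.31 and -0.52 on the log2 scale. All roles had a negative median log2 fold change, from -0.23 for the 9 kinesins to -0.55 for the 2 chromosome structure genes. The 9 tested centromere and kinetochore genes were negative in 9 of 9 cases with a median of -0.40, and the 6 checkpoint genes in 6 of 6 with a median of -0.44. AURKA, the Aurora kinase of centrosomes and spindle poles, had 162, 158 and 154 CPM in VT107 and 218, 206 and 255 CPM in DMSO libraries, without overlap. BUB3, the checkpoint protein that binds BUB1, had 257, 255 and 195 CPM in VT107 and 307, 279 and 284 CPM in DMSO libraries, again without overlap. FOXM1, a transcription factor of G2 genes, had 89.04, 102 and 69.1 CPM in VT107 and 109, 116 and 105 CPM in DMSO libraries, and here too every VT107 library was lower. Not all abundant members separated in this way. BIRC5, the survivin subunit of the chromosomal passenger complex, had 175, 166 and 254 CPM in VT107 and 206, 194 and 277 CPM in DMSO libraries, and CENPF, a large kinetochore protein, had 129, 123 and 55.7 CPM in VT107 and 143, 163 and 112 CPM in DMSO libraries.

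**Figure D2:**
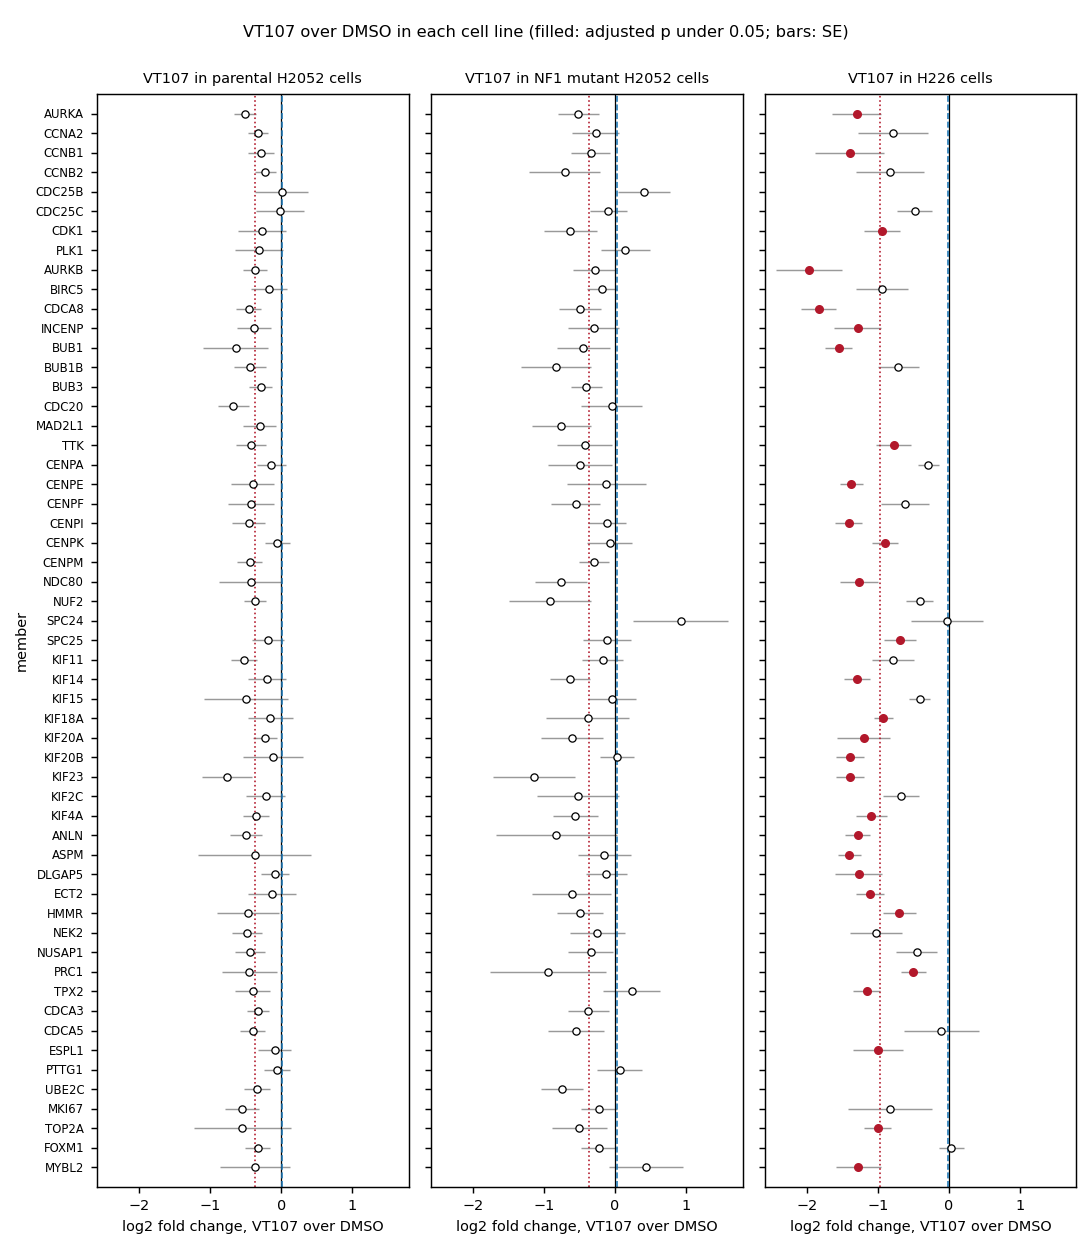
Log2 fold change of VT107 over DMSO (x axis) with its SE (bars) for each member (y axis, grouped by role) in parental H2052, NF1 mutant H2052 and H226 cells. Filled points passed an edgeR adjusted p of 0.05. The dotted red line is the median of the tested members (-0.37, -0.36 and -0.97) and the dashed blue line that of all genes tested.

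The same question was asked of NF1 mutant cells. Here 54 members passed the low-count filter, now with SPC24 and without ESPL1, the separase protease that cuts cohesin, which had 1 count in VT107 replicate 1. Of them 47 had a negative VT107 log2 fold change, with a median of -0.36 against 0.02 over all 11605 genes tested. None passed an adjusted p of 0.05 in edgeR, 1 had an unadjusted p under 0.05, and DESeq2 called 0 and limma with quality weights 1. edgeR called 0% of all genes, and limma with quality weights called 94 genes higher and 53 lower. Every VT107 library lay below every DMSO library for 9 of the 54 members, against 8.28% of genes, and above for 0 members, against 7.59%.

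Replicate 1 of the VT107 libraries was the extreme library for the members with the largest values. KIF23 had 4.0, 26.97 and 19.8 CPM in VT107 and 41.99, 37.3 and 33.4 CPM in DMSO libraries, the largest negative value of the list at -1.14 ± 0.58 (SE). PRC1, which bundles the microtubules of the midzone, had 5.71, 117 and 71.4 CPM in VT107 and 140.4, 127 and 108 CPM in DMSO libraries. NUF2, a subunit of the NDC80 complex, had 6.0, 39.4 and 30.7 CPM in VT107 and 44.2, 50.95 and 49.6 CPM in DMSO libraries. KIF23 and NUF2 were lower in each VT107 library than in any DMSO library, and PRC1 was not, although its value in replicate 1 was the lowest of all. The 3 highest log2 fold changes were those of SPC24, MYBL2 and CDC25B, at 0.93, 0.44 and 0.41. MYBL2, the B-MYB transcription factor, had 219, 52.3 and 71.6 CPM in VT107 and 73.2, 94.6 and 83.98 CPM in DMSO libraries, and CDC25B had 209.7, 94.6 and 97.01 CPM in VT107 and 97.7, 122 and 82.5 CPM in DMSO libraries. SPC24 had 2.86, 0.817 and 0.590 CPM in VT107 and 0.541, 0.882 and 0.737 CPM in DMSO libraries. For each of the 3, VT107 replicate 1 was the highest of the 6 libraries, and without it their log2 fold changes were 0.03, -0.44 and -0.07, so that MYBL2 and CDC25B turned direction.

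Without VT107 replicate 1 all 55 members were tested, 48 had a negative value and the median was -0.29. Without VT107 replicate 2 the median was -0.56 and 13 members had an unadjusted p under 0.05, with 0 called by edgeR. Without replicate 1 CDC20 was called lower, with a log2 fold change of -0.68 ± 0.15 (SE) and an edgeR adjusted p of 0.0386, where 1.59% of genes were called, 0.715% lower. Its values were 663, 294 and 199 CPM in VT107 libraries 1, 2 and 3, against 397, 431 and 363 CPM in DMSO libraries, so that replicate 1 was the highest and the other VT107 libraries the lowest of the 6. TPX2 had 888, 346 and 351 CPM in VT107 and 435, 510.2 and 397 CPM in DMSO libraries, with the same order. Its log2 fold change was 0.23 ± 0.40 (SE) with all libraries and -0.36 ± 0.13 (SE) without VT107 replicate 1.

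The difference between the VT107 responses, NF1 mutant minus parental, had a median of -0.01 over the 53 members tested in all 4 groups, against 0.03 over all 11432 genes. edgeR, DESeq2 and limma with quality weights called 0 of the 53, 0 had an unadjusted p under 0.05 in edgeR, and 0% of all genes were called. The 3 lowest differences were those of NUF2, PRC1 and CCNB2, the B2 cyclin, at -0.54, -0.48 and -0.47 with SEs of 0.63, 0.97 and 0.55. The 3 highest were those of MYBL2, TPX2 and CDC20, at 0.83, 0.66 and 0.64 with SEs of 0.75, 0.49 and 0.51. Without NF1 mutant VT107 replicate 1 all 6 lay between -0.08 and 0.06, and PRC1, MYBL2 and CDC20 had turned direction. The smallest SE was that of CENPM, with a difference of 0.17 ± 0.27 (SE). A p above the threshold does not show that the genotypes responded alike.

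The next question was whether the mitotic genes stood at another level in NF1 mutant than in parental cells. In DMSO, 16 of 54 tested members were higher in the NF1 mutant cells and 7 lower by edgeR at an adjusted p of 0.05, against 12.5% of all 12475 genes called higher and 14.9% called lower. The median over the members was 0.11, against -0.02 over all genes. Every NF1 mutant library lay above every parental one for 18 members, where 21.5% of genes did so, and below for 9, where 23% did so. Entry kinases, cyclins and phosphatases were 5 of 8 higher and 0 lower with a median of 0.70, and the passenger complex 2 of 4 higher and 0 lower with a median of 0.52. Centromere and kinetochore genes split into 2 higher and 2 lower of 9, kinesins likewise into 2 and 2 of 9, and both chromosome structure genes, MKI67 and TOP2A, were lower.

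CENPM, a small protein of the constitutive centromere network (chr22:42334725-42343168 in hg19), had 125, 113 and 117 CPM in NF1 mutant DMSO and 32.01, 32.01 and 34.8 CPM in parental DMSO libraries. The groups were far apart, and its log2 fold change of 1.86 ± 0.13 (SE) was the largest of the list, with an edgeR adjusted p of 6.52e-05. PTTG1, the securin that holds separase inactive (chr5:159848829-159855748 in hg19), had 454, 414 and 438 CPM in NF1 mutant DMSO and 188, 181 and 198 CPM in parental DMSO libraries. Its log2 fold change was 1.22 ± 0.11 (SE), with an edgeR adjusted p of 0.00018. PLK1, the Polo kinase of mitotic entry and spindle assembly, had 411, 432 and 345 CPM in NF1 mutant DMSO and 127, 128 and 232 CPM in parental DMSO libraries, without overlap. Its log2 fold change was 1.31 ± 0.25 (SE).

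Of the other members that rose, AURKB, the kinase of the passenger complex, had 287, 369 and 227 CPM in NF1 mutant DMSO and 129, 129 and 149.5 CPM in parental DMSO libraries. CDC25C had 46.7, 51.8 and 34.4 CPM in NF1 mutant DMSO and 14.3, 16.1 and 26.2 CPM in parental DMSO libraries. CCNB2 had 97.5, 107 and 86.7 CPM in NF1 mutant DMSO and 54.3, 57.4 and 56.2 CPM in parental DMSO libraries. In all 3 every NF1 mutant library was the higher. CENPA, the histone variant that marks centromeres, had 87.04, 87.3 and 90.6 CPM in NF1 mutant DMSO and 43.7, 40.7 and 53.5 CPM in parental DMSO libraries. KIF20A, the kinesin that carries the passenger complex to the midzone, had 54.97, 55.6 and 51.3 CPM in NF1 mutant DMSO and 25.6, 29.7 and 27.7 CPM in parental DMSO libraries. CDCA3, a ubiquitin ligase factor that acts on the WEE1 kinase, had 114, 124 and 113 CPM in NF1 mutant DMSO and 59.1, 62.1 and 67.8 CPM in parental DMSO libraries. None of these 3 overlapped, and their log2 fold changes were 0.96, 0.98 and 0.91 with SEs of 0.15, 0.14 and 0.13. CDC20 rose by 0.91 on the log2 scale, with 397, 431 and 363 CPM in NF1 mutant DMSO and 199.9, 186 and 257 CPM in parental DMSO libraries. ANLN rose by 0.74, with 194, 205 and 194 CPM in NF1 mutant DMSO and 123, 137 and 99.1 CPM in parental DMSO libraries.

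The members that fell were CENPE, NEK2, KIF15, TOP2A, MKI67, CENPF and KIF14. CENPE, the kinesin-like motor that moves chromosomes to the spindle equator (chr4:104026963-104119566 in hg19), had 13.9, 18.1 and 14.5 CPM in NF1 mutant DMSO and 61.3, 58.2 and 46.9 CPM in parental DMSO libraries. It fell by 1.82 on the log2 scale with an SE of 0.18 and an edgeR adjusted p of 0.000278. TOP2A had 289, 321 and 230.3 CPM in NF1 mutant DMSO and 1298, 1188 and 347 CPM in parental DMSO libraries. KIF15, a kinesin that keeps spindle poles apart, had 9.55, 6.18 and 5.16 CPM in NF1 mutant DMSO and 32.98, 27.4 and 11.9 CPM in parental DMSO libraries. For both the parental library numbered 3 was the lowest parental one, still above each NF1 mutant library, and the log2 fold changes were -1.72 ± 0.41 (SE) and -1.74 ± 0.39 (SE). TOP2A lost its call without any 1 of the NF1 mutant DMSO libraries, and KIF15 without NF1 mutant DMSO replicate 2 or 3. Among the members that rose, CDC25C lost its call without NF1 mutant DMSO replicate 2.

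**Figure D3:**
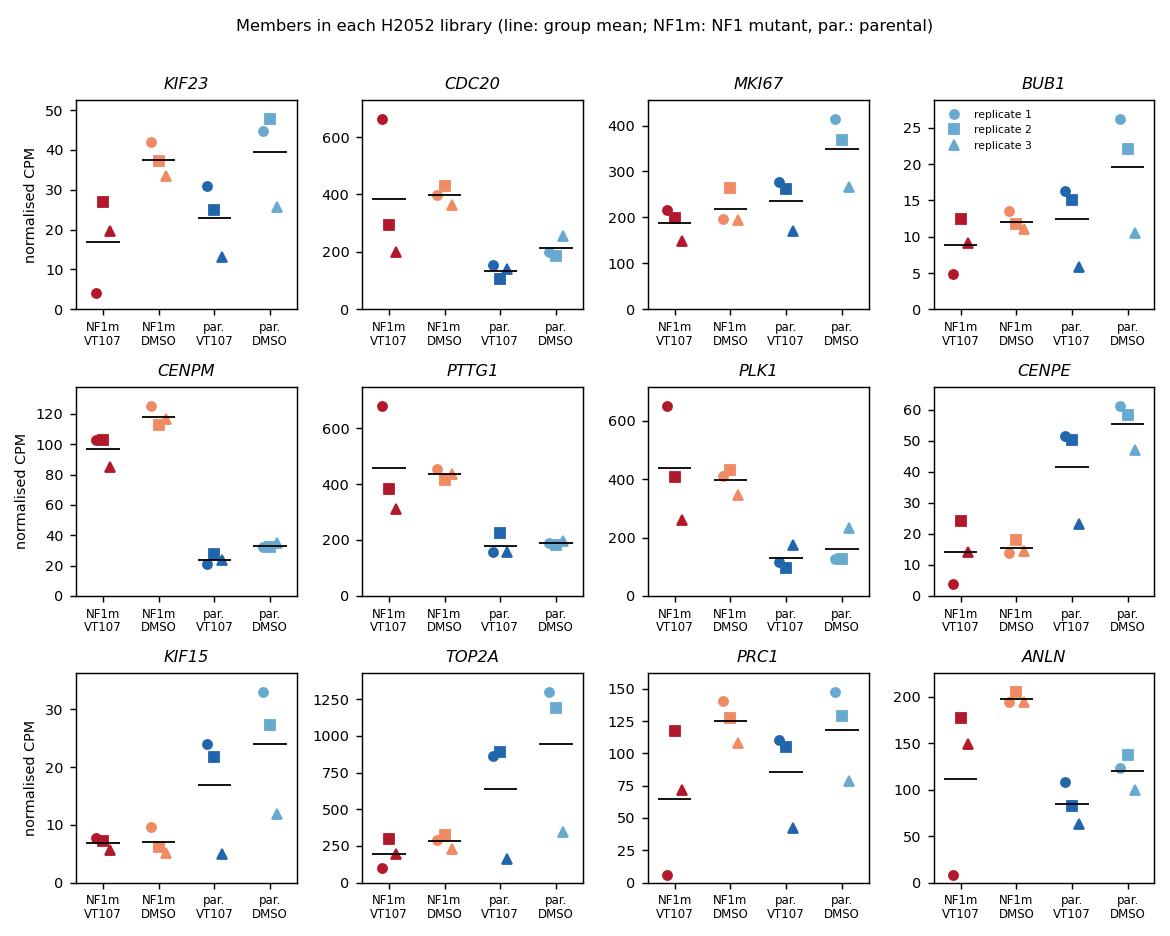
Normalised CPM (y axis, from 0) of 12 members in each H2052 library, by group (x axis) and replicate number (symbol), with the group mean as a line. CENPM, PTTG1 and PLK1 are higher and CENPE, KIF15 and TOP2A lower in NF1 mutant than in parental DMSO libraries, and the parental libraries numbered 3 have the lowest TOP2A, KIF15 and KIF23 of their groups.

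These calls depended on the libraries in the fit. Leaving out 1 library at a time gave 12 to 22 members higher and 2 to 14 lower. The most were called without parental DMSO replicate 3 (22 and 14, where 24.7% and 26.3% of genes were called). The fewest were lower without NF1 mutant DMSO replicate 3, where 1142 of 12591 genes were called lower. With all 4 H2052 groups in 1 fit, 6 of 53 members were higher and 2 lower, where 228 of 11432 genes were higher and 735 lower. KIF20A, CENPA, CCNB2, CDC20, ANLN, KIF15 and TOP2A were among the members no longer called. The parental and the NF1 mutant libraries carry different name stems in the count table and differ in depth, so genotype and set of libraries cannot be told apart.

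The direction of these differences moved with the length of the transcript. Lengths are those of the longest protein-coding transcript in GENCODE v29, matched for 97.3% of the genes tested in DMSO and for all 54 members tested. The 10 members under 2000 bases had a median log2 fold change of 0.67 (all genes of that class 0.14), the 16 of 2000 to under 3000 bases 0.44 (all genes 0.07), the 18 of 3000 to under 5000 bases 0.10 (all genes -0.02) and the 10 of 5000 bases or more -0.64 (all genes -0.23). CENPM has a longest transcript of 1002 bases and PTTG1 one of 1070, against 8612 for CENPE and 12678 for MKI67. Of the 16 members called higher 12 were under 3000 bases, and of the 7 called lower 5 were of 5000 bases or more. Within the parental DMSO group the library numbered 3 differed from the other 2 in the same sense, with a Spearman correlation across 53 members of -0.53 between its deviation and transcript length, against -0.24 across 10550 genes. Genes are not independent replicates, so these are descriptions, and the part of transcript length in the result was not tested. For VT107 over DMSO in parental cells the members were negative in every length class, with medians of -0.31, -0.32, -0.44 and -0.34 from short to long.

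**Figure D4:**
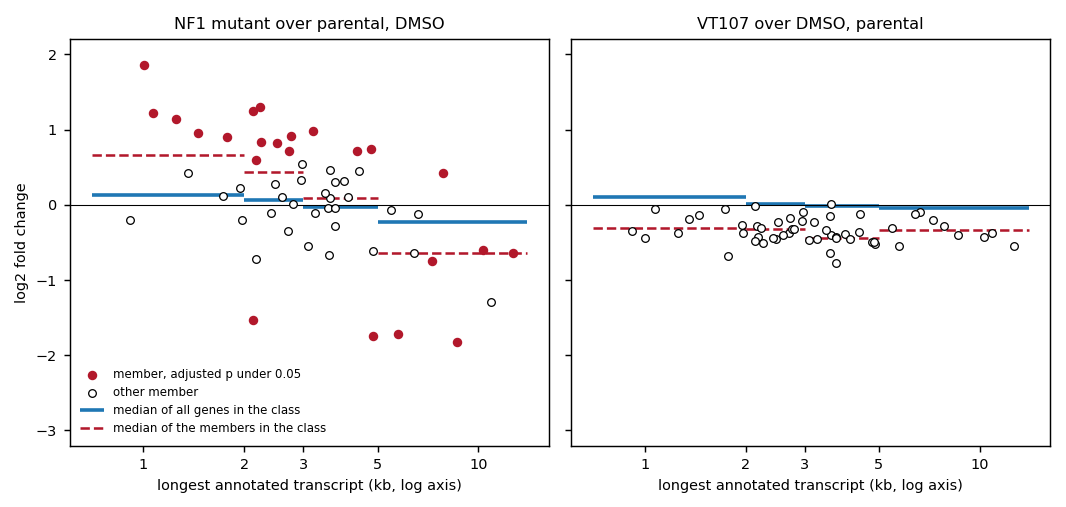
Log2 fold change of each member (y axis) against the length of its longest annotated transcript (x axis, log scale), for NF1 mutant over parental cells in DMSO (left) and VT107 over DMSO in parental cells (right). Blue lines are the medians of all genes in each length class and dashed red lines those of the members, which run from 0.67 to -0.64 on the left and stay between -0.31 and -0.44 on the right.

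In VT107 the same genotypes were compared with 53 members, and 0 were called by edgeR, where 0% of all 11654 genes were called. There were 14 members with an unadjusted p under 0.05, where 1945 genes had one. DESeq2 called 6 members higher and 1 lower, where it called 233 genes higher and 449 lower. Limma with quality weights called 11 members higher and 12 lower, where it called 1566 genes higher and 2033 lower. The comparison shares no library with that in DMSO, but the same sets of libraries and depths separate its genotypes. The member medians by length class were 0.54, 0.39, 0.09 and -0.74 from short to long. Those of all genes were 0.15, 0.09, -0.06 and -0.24. The part of transcript length was not tested here either. The median over the members was 0.08, against -0.02 over all genes, and its sign depended on single libraries, at -0.18 without NF1 mutant VT107 replicate 2 (29 of 53 negative) and -0.03 without replicate 3. Every NF1 mutant library lay above every parental one for 13 members, where 11.2% of genes did so, and below for 3, where 14.3% did so.

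The largest values again belonged to members named above. CENPM had 103, 103 and 84.9 CPM in NF1 mutant VT107 and 20.9, 27.4 and 23.7 CPM in parental VT107 libraries, without overlap, and a log2 fold change of 2.002 ± 0.30 (SE) with an edgeR adjusted p of 0.0654. PLK1 had 652, 408 and 259 CPM in NF1 mutant VT107 and 118, 96.3 and 174 CPM in parental VT107 libraries, without overlap, and a log2 fold change of 1.75 ± 0.43 (SE). PTTG1 had 680.2, 382 and 309.9 CPM in NF1 mutant VT107 and 157, 225 and 158 CPM in parental VT107 libraries. At the other end, TOP2A had 102, 294 and 198 CPM in NF1 mutant VT107 and 862, 888 and 163 CPM in parental VT107 libraries, and parental replicate 3 lay within the NF1 mutant range. CENPE had 4.0, 24.1 and 14.2 CPM in NF1 mutant VT107 and 51.6, 50.3 and 23.1 CPM in parental VT107 libraries, and KIF15 7.71, 7.15 and 5.60 CPM in NF1 mutant VT107 and 24.1, 21.8 and 4.95 CPM in parental VT107 libraries. Both overlapped through parental replicate 3. Without NF1 mutant VT107 replicate 1, CENPM was the only member called, with an edgeR adjusted p of 0.0291, where 1.46% of genes were called, 0.278% higher and 1.19% lower. Without the parental libraries numbered 3 and NF1 mutant VT107 replicate 1, 16 members were called higher and 11 lower. That fit called 1715 of 12702 genes higher and 2131 lower. Among these members were CENPM, PLK1 and CDC20 higher and TOP2A, CENPE and KIF15 lower.

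**Figure D5:**
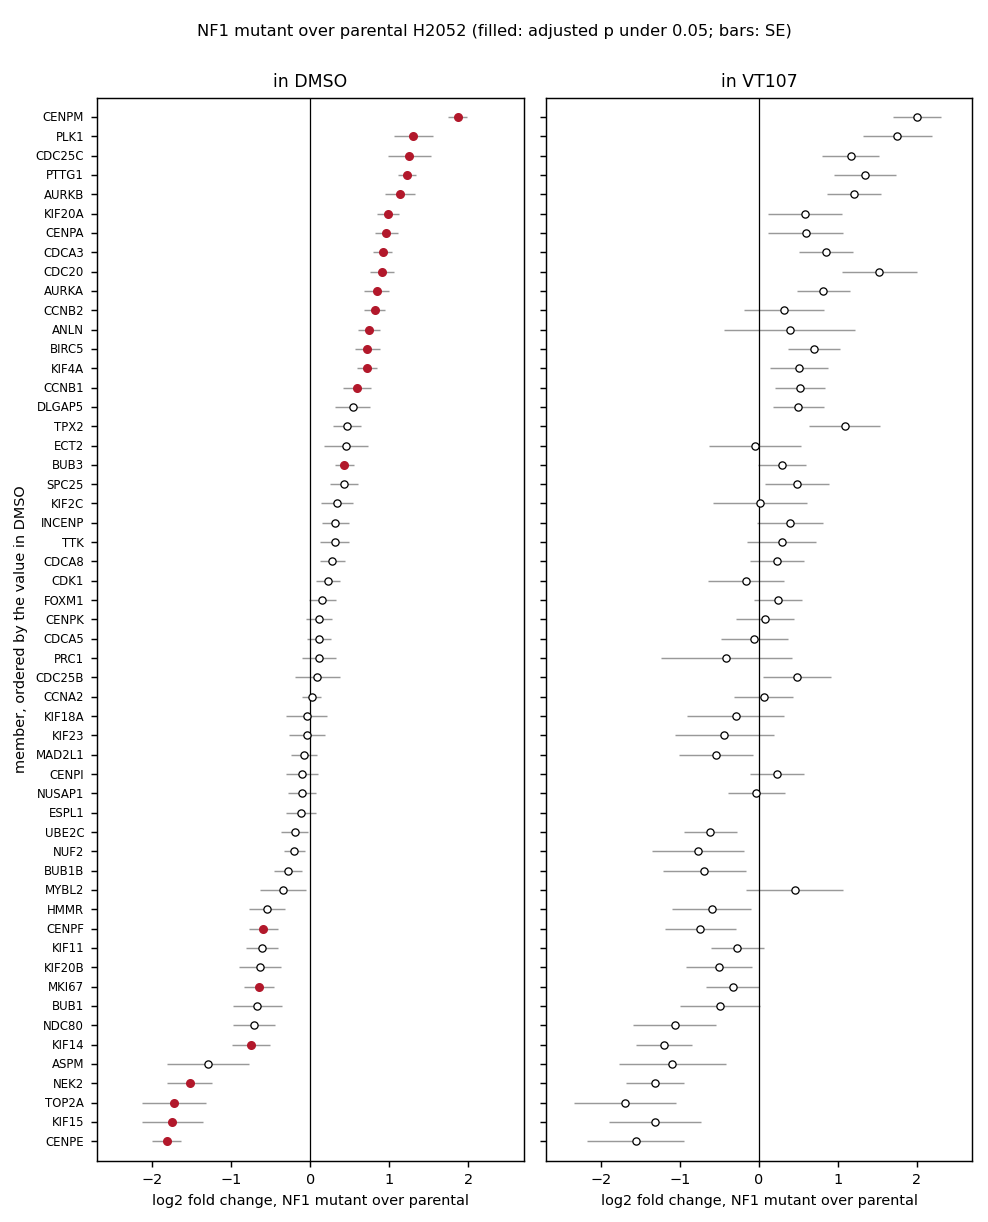
Log2 fold change of NF1 mutant over parental H2052 cells (x axis) with its SE (bars) for each member tested, in DMSO (left) and VT107 (right), ordered by the value in DMSO (y axis). Filled points passed an edgeR adjusted p of 0.05: 16 higher and 7 lower in DMSO and 0 in VT107, where the SEs are larger.

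The promoters of the members were set beside those of all genes, since most members had negative VT107 values together. RefSeq (GRCh38.p14) windows of 300 bases, 250 before and 50 after the start, were matched for 47 of the 55 members, and AURKA, BUB3, TTK, CENPM, TPX2, BIRC5, UBE2C and FOXM1 had none. The motifs searched on both strands were the CHR as TTTGAA or TTCGAA, the CCAAT box as CCAAT, the TEAD core as GGAATG and the E2F core as TTCCCGC or TTGGCGC. A CHR stood in 33 of 47 member windows (70.2%), against 16.6% of 27305 genes, and a CCAAT box in 35 (74.5%), against 35.7%. Both stood in 27 windows (57.4%), against 6.58% of all, and 22 windows (46.8%) had 2 or more CCAAT boxes, against 11.3%. The TEAD core stood in 6 windows (12.8%), against 14% of all, and the E2F core in 11 (23.4%), against 9.33%. Of the CHR matches, 33 of 44 had their first base within 50 bases of the start. Positions were not computed over all genes, so this placement has no scale beside it. These matches are descriptions of letters and not of binding.

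The windows of 6 members called in DMSO between the genotypes are shown, those with the smallest p among the members matched. They were not chosen by motif or direction. Capitals mark CHR and CCAAT matches on either strand. CDCA3, CENPA and CCNB2 each have 1 CHR, and PTTG1, KIF20A and CENPE have 0. CCAAT boxes number 4 in CCNB2, 3 in PTTG1, 2 each in KIF20A and CENPA, 1 in CDCA3 and 0 in CENPE, the member of the 6 that fell. CENPE does not stand for the other members that fell. TOP2A, MKI67, CENPF and KIF14 have both a CHR and a CCAAT box, NEK2 has CCAAT boxes and KIF15 a CHR. A relation between motif and direction was not tested. The windows are chr5:160421605-160421904 (plus strand) for PTTG1, chr4:103198294-103198593 (minus) for CENPE, chr12:6851237-6851536 (minus) for CDCA3, chr5:138178862-138179161 (plus) for KIF20A, chr2:26785806-26786105 (plus) for CENPA and chr15:59104896-59105195 (plus) for CCNB2.
PTTG1: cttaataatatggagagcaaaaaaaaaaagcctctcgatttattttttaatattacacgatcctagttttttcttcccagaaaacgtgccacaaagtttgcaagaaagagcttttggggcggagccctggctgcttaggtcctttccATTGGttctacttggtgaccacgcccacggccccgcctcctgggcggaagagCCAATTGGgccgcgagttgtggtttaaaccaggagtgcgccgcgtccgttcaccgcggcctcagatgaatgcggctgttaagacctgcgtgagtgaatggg
CENPE: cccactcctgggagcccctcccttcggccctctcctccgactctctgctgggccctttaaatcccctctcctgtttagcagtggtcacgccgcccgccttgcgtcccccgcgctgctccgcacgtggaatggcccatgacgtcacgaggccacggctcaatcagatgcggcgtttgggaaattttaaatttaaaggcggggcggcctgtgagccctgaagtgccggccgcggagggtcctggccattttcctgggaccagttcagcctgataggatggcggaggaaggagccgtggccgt
CDCA3: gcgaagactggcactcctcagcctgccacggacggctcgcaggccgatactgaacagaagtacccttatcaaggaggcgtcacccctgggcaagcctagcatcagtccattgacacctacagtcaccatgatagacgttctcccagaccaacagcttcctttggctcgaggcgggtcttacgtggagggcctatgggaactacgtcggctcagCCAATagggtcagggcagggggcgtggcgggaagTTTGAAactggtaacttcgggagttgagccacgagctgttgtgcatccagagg
KIF20A: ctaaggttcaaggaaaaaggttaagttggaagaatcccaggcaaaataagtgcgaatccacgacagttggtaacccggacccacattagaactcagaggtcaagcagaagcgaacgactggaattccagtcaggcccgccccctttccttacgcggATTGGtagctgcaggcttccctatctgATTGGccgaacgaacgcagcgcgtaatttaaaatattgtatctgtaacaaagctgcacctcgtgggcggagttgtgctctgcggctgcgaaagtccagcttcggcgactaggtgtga
CENPA: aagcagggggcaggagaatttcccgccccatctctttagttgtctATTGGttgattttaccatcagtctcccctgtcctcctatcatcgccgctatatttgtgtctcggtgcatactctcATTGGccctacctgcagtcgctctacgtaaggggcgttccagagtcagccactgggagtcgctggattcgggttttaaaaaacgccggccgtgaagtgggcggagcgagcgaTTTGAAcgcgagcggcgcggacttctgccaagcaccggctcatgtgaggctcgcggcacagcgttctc
CCNB2: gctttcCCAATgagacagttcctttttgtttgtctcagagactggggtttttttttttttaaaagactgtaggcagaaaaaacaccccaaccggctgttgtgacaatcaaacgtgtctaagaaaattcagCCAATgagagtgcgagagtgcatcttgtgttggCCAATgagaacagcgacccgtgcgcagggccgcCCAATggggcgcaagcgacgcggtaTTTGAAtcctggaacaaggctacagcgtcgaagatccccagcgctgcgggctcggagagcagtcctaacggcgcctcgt

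In H226 cells the values have 2 limits that bear on every gene. Pairs were taken in which an abundant gene lies inside an opposite-strand gene that is counted little in H2052 libraries. In 43 of 43 such pairs the enclosing gene had the more H226 counts. A value listed for a gene may therefore hold reads of a gene on the other strand. It may also lack reads of the gene itself, with or without an overlapping gene. How far the H226 values measure the named genes was not tested. The H226 table also lists no gene with a corrected p of 1 (0 of 19294 rows), so shares of genes called are over a table already filtered by its outcome. The counts it lists summed to 1568127 to 1726786 per library in VT107 and 1387223 to 1542929 in DMSO. These are counts given to genes and not the reads sequenced. It has rows for 54 members, without UBE2C. Of these, 46 passed the filter. PLK1, CDC20, BUB3, MAD2L1, CENPM, CDCA3, PTTG1 and CDC25B did not, several of them abundant in H2052 libraries. Only 2 of the 9 listed YAP/TAZ-TEAD target genes passed it. Of the 46 members, 29 fell and 0 rose by edgeR at an adjusted p of 0.05. Of all 12765 genes 10.5% fell, 9.08% rose and 19.6% were called in all. The median over the 46 was -0.97, against -0.01 over all genes. Every VT107 library lay below every DMSO library for 33 members, where 17.9% of genes did so, and above for 0, where 16.9% did so. Of the 34 tested members that no gene of the opposite strand overlaps, 22 fell, where 9.59% of 6505 such genes fell. Leaving out 1 library at a time gave 19 to 32 members lower, with 19 without VT107 replicate 3, where 866 of 12983 genes were called lower.

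Every role had a member called lower in H226 cells. Among the cohesion, separation and ubiquitin ligase factors only ESPL1 was called, with an edgeR adjusted p of 0.049. Of the transcription factors MYBL2 was called and FOXM1 was not. ASPM, a spindle pole protein, had 49.9, 37.1 and 38.02 CPM in VT107 and 116, 106 and 111 CPM in DMSO libraries, a log2 fold change of -1.40 ± 0.16 (SE) with an edgeR adjusted p of 1.21e-06. CENPE had 39.4, 34.5 and 31.99 CPM in VT107 and 90.6, 97.7 and 87.7 CPM in DMSO libraries, and BUB1 38.4, 28.8 and 24.7 CPM in VT107 and 83.6, 80.3 and 109 CPM in DMSO libraries. CENPI, of the constitutive centromere network, had 30.7, 25.6 and 21.7 CPM in VT107 and 61.7, 68.9 and 79.1 CPM in DMSO libraries. None of these 4 overlapped between VT107 and DMSO. CDCA8, the borealin subunit of the passenger complex, had 23.6, 11.5 and 13.3 CPM in VT107 and 61.7, 44.8 and 69.7 CPM in DMSO libraries, and AURKB 3.29, 1.28 and 1.81 CPM in VT107 and 10.3, 7.36 and 8.61 CPM in DMSO libraries. AURKB had the largest fall, -1.97 ± 0.47 (SE), at low levels. Among the kinesins, KIF23 had 35.1, 24.9 and 20.5 CPM in VT107 and 78.4, 71.6 and 62.6 CPM in DMSO libraries, and KIF14, which acts in cytokinesis, had 37.3, 24.3 and 24.1 CPM in VT107 and 73.3, 68.9 and 69.7 CPM in DMSO libraries. KIF18A, which shortens kinetochore microtubules, had 118, 102 and 91.7 CPM in VT107 and 188, 205 and 199.7 CPM in DMSO libraries, and like the other kinesins named it did not overlap. KIF20B, a kinesin of late cytokinesis, had 27.9, 24.9 and 18.7 CPM in VT107 and 57.9, 56.2 and 75.96 CPM in DMSO libraries, and ANLN 76.2, 48.6 and 47.7 CPM in VT107 and 143, 159.9 and 119 CPM in DMSO libraries. The 3 highest values were those of FOXM1, SPC24 and CDCA5, the sororin that guards cohesion, at 0.04, -0.03 and -0.11 on the log2 scale, each smaller than its SE and each turning direction with some library left out. FOXM1 had 50.4, 46.03 and 43.5 CPM in VT107 and 39.9, 45.5 and 51.7 CPM in DMSO libraries. FOXM1 shares its locus with genes of the opposite strand, and so do KIF23 and ANLN, which fell. What such sharing adds to or takes from the values of these members was not tested. H226 and H2052 cells were measured in separate tables, and the difference between their responses was not tested.

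Further lists of cell cycle genes gave a scale for the members. In parental cells in VT107, edgeR called 0 genes of each list without the block, as it called 0 genes in all. The median log2 fold change there was -0.31 over 30 further G2/M genes, -0.31 over 26 G1/S and replication genes, -0.30 over 13 condensin and cohesin genes and -0.24 over 27 further centromere and kinetochore genes. It was 0.04 over 14 subunits of the anaphase-promoting complex and 0.04 over 10 CDK inhibitors and p53 targets. The median over the members was -0.37. In NF1 mutant cells in VT107 the median was -0.40 over 30 further G2/M genes, -0.23 over 26 G1/S genes and 0.18 over 14 subunits of the anaphase-promoting complex, with 0 genes of any list called.

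Between the genotypes in DMSO the further lists also held genes of both directions, where 12.5% of all genes were called higher and 14.9% lower. Of 27 further centromere and kinetochore genes 4 were higher and 6 lower in NF1 mutant cells, of 30 further G2/M genes 8 were higher and 4 lower, and of 13 condensin and cohesin genes 0 were higher and 5 lower. SMC1A, SMC2 and SMC3, the coiled-coil ATPases of cohesin (SMC1A and SMC3) and condensin (SMC2), fell by 2.37, 1.38 and 1.90 on the log2 scale. RRM1, the large subunit of ribonucleotide reductase, fell by 1.22, whereas RRM2, its small subunit, rose by 0.79 and GINS2, of the replicative helicase, by 0.94. CDK4, the kinase of G1 cyclins, rose by 1.12 and CCND1, cyclin D1, fell by 0.54. Of 12 DREAM and MuvB subunits 3 were higher and 1 lower, among them E2F5 at 0.82 and LIN52 at -1.67. In H226 cells in VT107, where 10.5% of all genes fell and 9.08% rose, 15 of 26 further G2/M genes and 11 of 21 further centromere and kinetochore genes fell. So did 7 of 13 condensin and cohesin genes and 6 of 21 G1/S genes, and 0 genes of these lists rose. Of 11 subunits of the anaphase-promoting complex 1 fell.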

How the data were processed

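The authors deposited gene counts from Trizol RNA sequenced as single-end 75 bp reads on a NextSeq500, made with bcl2fastq 2.20.0.422 and hg19 per the labels. For the aligner, counter, kit and strand setting the sources used here give no name. The H226 table also holds the authors' own DESeq p-value and log2 fold change columns, of which 1 served only to check which genes the table lists. A further table of siRNA samples, with 16 columns of per-sample values matched to no described sample, was not used. The test was edgeR 4.0.16 in R 4.3.3 (TMM, quasi-likelihood, Benjamini-Hochberg adjusted p of 0.05) on genes reaching 0.5 CPM in all libraries compared, with only the groups compared in the fit. SE is the log2 fold change over the square root of F. Values shown are TMM-normalised CPM, on 1 scale per table. Alternatives were DESeq2 1.42.0, limma 3.58.1 with quality weights, other scaling, other filters, all 4 groups in 1 fit, each library left out, and a replicate block. The scripts were tested on simulated data.

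Replicate numbers were taken to pair parental libraries only, where deviations of same-numbered VT107 and DMSO libraries correlated at 0.613, 0.488 and 0.795. VT107 library 1 with DMSO library 2 (0.607) and VT107 library 2 with DMSO library 1 (0.517) correlated about as well, so only number 3 stands apart, and the block and the counts within numbers rest on the labels for numbers 1 and 2. In NF1 mutant cells they correlated at -0.17, -0.22 and 0.165, and in H226 cells at 0.220, 0.0099 and 0.031. The paper calls the RNA-seq replicates biological but does not say whether they came from separate cultures. The p-values measure the spread between these samples, part of which may be technical. Members and lists were chosen with earlier results of these data known. Members named were those with the smallest p, the most extreme log2 fold changes in either direction and the largest counts of each role.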

Additional observations from a re-analysis of the deposited data

How the results depend on the processing

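Of the named members' values under an alternative, 668 kept their direction and their side of the threshold, 29 passed it only there, 13 no longer passed and 39 turned direction, each without a call on either side. In parental cells VT107 gave 32 genes called with DESeq2, 18 with limma and quality weights, 215 with the replicate block (3 members lower), 374 with number 3 alone set apart (7 members lower) and 44 without both number 3 libraries. In NF1 mutant cells it gave 20 genes with DESeq2, 147 with quality weights (1 member lower), 3 with all 4 groups in 1 fit, and 0 to 198 genes and 0 to 1 members lower with 1 library left out. Between genotypes in DMSO, quality weights gave 6554 genes with 14 members lower, the fit of all 4 groups 963 genes with 6 higher and 2 lower, and leaving out 1 library 1779 to 6409 genes with 2 to 14 members lower. Between genotypes in VT107, no filter gave 196 genes and 1 member higher, DESeq2 682 genes with 6 higher and 1 lower, quality weights 3599 with 11 higher and 12 lower, the fit of all 4 groups 1297 with 8 higher and 2 lower, and the fit without the parental number 3 libraries and NF1 mutant VT107 replicate 1 3846 with 16 higher and 11 lower. Leaving out 1 library there gave 0 to 184 genes and 0 to 1 members higher. In H226 cells leaving out 1 library gave 1646 to 2218 genes and 19 to 32 members lower. The cause of these changes was not tested. The fits that leave out number 3 libraries, or set number 3 alone apart, were chosen after seeing the data.

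The replicate block, whose numbers pair only parental libraries, gave 0 members in NF1 mutant cells and 0 between genotypes in VT107. Between genotypes in DMSO it gave 14 members higher and 9 lower, where 10.6% and 13.3% of genes were called. In H226 cells it gave 36 members lower, where 13.7% of genes were called lower.

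The values that turned direction are log2 fold changes. For VT107 in parental cells, CENPK was 0.0094 and CDC25C 0.040 with quality weights, CENPK 0.0051 and CDC25C 0.037 without both number 3 libraries, and CDC25B -0.0054 with all 4 groups in 1 fit. With 1 library left out, CENPK ran from -0.14 to 0.034, CDC25C from -0.31 to 0.32 and CDC25B from -0.33 to 0.43. In NF1 mutant cells, quality weights gave -0.027 for CDC25B and -0.34 for MYBL2, and quality weights with the replicate block -0.38 for MYBL2 and -0.090 for SPC24. With 1 library left out, CDC25B ran from -0.069 to 0.60, MYBL2 from -0.44 to 0.78 and CDC20 from -0.68 to 0.26. For the difference of responses, CDC20 was -0.22 with quality weights, -0.12 without the parental number 3 libraries and NF1 mutant VT107 replicate 1, and -0.022 with the replicate block and without that replicate, where PRC1 was 0.18 and MYBL2 -0.11. With 1 library left out, PRC1 ran from -1.24 to 0.052, CDC20 from -0.00021 to 0.96 and MYBL2 from -0.057 to 1.39. In H226 cells SPC24 was 0.48 with quality weights and 0.0044 with the replicate block, and with 1 library left out SPC24 ran from -0.47 to 0.69, CDCA5 from -0.55 to 0.13 and FOXM1 from -0.058 to 0.13.

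The median over the members turned to -0.02 with the replicate block between genotypes in VT107, and the median difference of responses, -0.01, took either sign.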
